A study of Mus musculus with 9 samples.

Results

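The genes described here make cholesterol and fatty acids, or control that synthesis, in mouse adult fibroblasts (MAFs) exposed to DPI. They are 42 genes picked by symbol from the deposited count table, which lists 53465 gene IDs, and all 42 were abundant enough to be among the 14088 genes tested. They were kept in 3 groups: 19 genes of mevalonate and sterol synthesis (the sterol branch), 5 genes of the SREBP machinery, and 18 genes of fatty acid and triglyceride synthesis (the fatty acid branch). Total RNA was sequenced from 9 libraries: 3 of cells exposed to DPI for 72 h, 3 of cells exposed to DPI for 24 h, and 3 of controls. DPI was read as diphenyleneiodonium, which inhibits flavin-dependent enzymes, because the series concerns the flavin cofactor FMN and respiratory complex I. The labels give no dose, genotype, strain, sex or age, and all 9 libraries share the single cell type label MAFs. The labels do not say whether the controls were untreated or given a vehicle, nor when they were collected, so time in culture cannot be told apart from DPI in any comparison. Nothing in them says that replicate libraries were grown as separate cultures, so each p-value measures a spread between libraries that may be purely technical.

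Cells match sterol and fatty acid synthesis to their membrane lipids through the SREBP transcription factors, which are made as precursors in the endoplasmic reticulum. SCAP escorts a precursor to the Golgi, where the proteases encoded by Mbtps1 and Mbtps2 release the active factor. When sterols are plentiful, INSIG proteins hold SCAP and its cargo back in the endoplasmic reticulum. The factor from Srebf2 acts mostly on sterol genes and those from Srebf1 more on fatty acid genes, often beside NF-Y, which binds CCAAT boxes. In skin fibroblasts grown in culture this pathway is the textbook example of feedback control by sterols.

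Library totals ranged from 15292736 to 17923656 counts, and values below are CPM (a gene's share of the library, scaled by TMM) unless stated. Control library 2 stood apart from the other controls: its chi-square per degree of freedom was 33.5 against control 1 and 28.3 against control 3, while controls 1 and 3 gave 4.44. Among the fibroblast markers, Col1a1, Col1a2, Vim and Fn1 each averaged at least 1644 CPM in every group, whereas Thy1 and Lum averaged at most 0.0430 CPM and Dcn at most 3.52 CPM. The summed fibroblast markers lay between 10839 and 12444 CPM at 72 h, between 12742 and 13425 CPM at 24 h and between 6637 and 8203 CPM in controls, so this list moved with the same contrast as the genes below. All 8 of its tested members were called higher at 24 h than in controls, and their part in the results was not tested. Adipocyte markers, the other cell type rich in these lipid enzymes, summed to 3.03 to 4.19 CPM at 72 h, 5.02 to 6.31 CPM at 24 h and 5.05 to 5.55 CPM in controls, with Adipoq, Cidec, Lep and Pck1 at 0 in all 9 libraries. Endothelial markers summed to 1.35 to 2.90 CPM at 72 h, 4.39 to 6.06 CPM at 24 h and 2.26 to 2.59 CPM in controls, so their sum was highest at 24 h, as the sterol genes were. Of their 2 tested genes, Kdr averaged 0.703 CPM at 72 h, 2.95 CPM at 24 h and 1.49 CPM in controls, and was called higher at 24 h than in controls (adjusted p = 0.0338) and lower at 72 h than at 24 h (0.00104). The other tested gene, Erg, was not called at 24 h against control (edgeR adjusted p = 0.0558). Of the untested genes, Pecam1 and Cdh5 averaged highest at 72 h, Vwf, Tek and Emcn at 24 h, and Cldn5 in controls. Each of these averaged at most 0.442 CPM in any group. Any part of endothelial cells in the results was not tested. Sebocyte and keratinocyte markers summed to at most 6.50 CPM and macrophage markers to at most 10.3 CPM in any library. Krt14 averaged 1.78 CPM at 72 h, 0.0392 at 24 h and 0.479 in controls, called lower at 24 h than in controls and higher at 72 h than at 24 h. Cd68 averaged 2.42 CPM at 72 h, 4.19 at 24 h and 4.33 in controls, called lower at 72 h than in both other groups. In bulk RNA, fewer cells that express a gene and less RNA per cell cannot be told apart.

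Levels between genes were compared per kilobase of merged exons (FPKM). The most abundant of the 42 transcripts was Scd2, a stearoyl-CoA desaturase that makes monounsaturated fatty acids, at 499 ± 14.3 FPKM at 72 h, 502 ± 8.65 FPKM at 24 h and 289.8 ± 9.66 FPKM in controls (SD, n = 3 each). In controls it was followed by its paralog Scd1 at 67.8 ± 5.60 FPKM, the citrate lyase gene Acly at 63.5 ± 4.69, the malic enzyme gene Me1 at 62.6 ± 4.18 and the desaturase gene Fads1 at 61.2 ± 2.80 FPKM. Per kilobase of merged exons these last 4 levels overlapped within 1 SD of their means, and their differences were not tested. Their order depended on the length used: per kilobase of the longest transcript, Fads1 averaged 85.1 FPKM, Acly 75.7, Me1 73.2 and Scd1 68.7 FPKM. The most abundant sterol transcript in controls was Fdps, the farnesyl diphosphate synthase, at 47.9 ± 6.32 FPKM, next to Fasn, the fatty acid synthase, at 45.2 ± 8.81 FPKM and Insig1 at 45.0 ± 0.739 FPKM, and on this length these 3 did not differ beyond their spread. Per kilobase of the longest transcript, Fdps averaged 68.2 FPKM in controls, Insig1 51.6 and Fasn 49.2 FPKM, so Fdps stood further from the other two. At 24 h Insig1, Scd1, Fdps and Cyp51 averaged 115, 114, 114 and 109 FPKM. The least abundant members were Acacb, the mitochondrial acetyl-CoA carboxylase, at 0.147 ± 0.0359 FPKM in controls, and Tm7sf2, a sterol reductase, at 0.948 ± 0.377 FPKM.

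The first question was how the regulators themselves stood after DPI. At 24 h, Insig1 and Srebf2 were higher than in controls, while Srebf1, Scap and Insig2 did not pass the test. At 72 h, Insig1, Srebf2 and Srebf1 were higher than in controls. A gene was called when its edgeR quasi-likelihood p-value was under 0.05 after Benjamini-Hochberg adjustment over every gene tested. By that rule 2 of the 5 machinery genes were called at 24 h and 3 of 5 at 72 h, each of them higher. Over all genes tested, 24.7% were called at 24 h, 12.4% higher and 12.3% lower. At 72 h, 8.56% were called, 4.73% higher and 3.83% lower.

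Insig1, which retains SCAP and is itself a classic SREBP target, had 193, 197 and 206 CPM at 72 h, 361, 348 and 356 CPM at 24 h, and 142, 139 and 137 CPM in controls. The 3 groups do not overlap, and the 72 h libraries lie between the others. Its log2 change from control was 1.35 ± 0.05 at 24 h (SE, edgeR adjusted p = 9.64e-08) and 0.51 ± 0.05 at 72 h (adjusted p = 0.000152). Srebf2, the gene of the sterol-directed factor, had 341, 320.1 and 315 CPM at 72 h, 373, 403 and 391 CPM at 24 h, and 254, 238 and 268 CPM in controls. Both DPI groups lie above every control, with log2 changes of 0.62 ± 0.06 at 24 h (adjusted p = 6.27e-05) and 0.36 ± 0.06 at 72 h (adjusted p = 0.00492).

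Srebf1, whose isoforms share most exons and were counted as 1 gene, had 186, 182 and 176 CPM at 72 h, 159.6, 168 and 151 CPM at 24 h, and 142, 150.04 and 147 CPM in controls. It was highest at 72 h, where it was called against control (log2 change 0.31 ± 0.06, SE, edgeR adjusted p = 0.00856). At 24 h its log2 change of 0.13 ± 0.06 was not called (adjusted p = 0.155), although the lowest 24 h library lies above the highest control. Insig2, the second INSIG gene, had 45.7, 39.2 and 40.4 CPM at 72 h, 43.7, 41.7 and 42.3 CPM at 24 h, and 37.3, 38.6 and 33.8 CPM in controls. Its log2 changes of 0.19 at 72 h and 0.22 at 24 h were not called (adjusted p = 0.175 and 0.0667), and the 24 h one passed without control library 2 (adjusted p = 0.0227). Scap, the escort, had 96.6, 92.3 and 92.2 CPM at 72 h, 93.9, 105 and 99.1 CPM at 24 h, and 99.8, 89.9 and 90.9 CPM in controls, and its 3 groups overlap.

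Setting 72 h directly against 24 h asked whether the regulators differed between the exposures. Of all genes tested, 21.3% were called in it, 10.1% higher at 72 h and 11.2% lower. Among the machinery, Insig1 was lower at 72 h than at 24 h, with a log2 difference of -0.84 ± 0.05 (SE, edgeR adjusted p = 2.15e-06), and so was Srebf2, with -0.26 ± 0.06 (adjusted p = 0.0155). The Srebf2 call was lost without DPI 24 h library 2 or 3 or DPI 72 h library 2 or 3, at adjusted p from 0.0602 to 0.0697. Srebf1 had a log2 difference of 0.18 ± 0.06 and was not called (adjusted p = 0.0549), and it passed without control library 2 (adjusted p = 0.00972). It also passed with DESeq2 (0.0282), limma voom (0.0481), upper-quartile scaling (0.041), a minimum of 5 CPM in 3 libraries (0.0325) and a model of the compared libraries alone (0.0106). The differences of Scap and Insig2, -0.09 and -0.03, were not called.

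**Figure D1:**
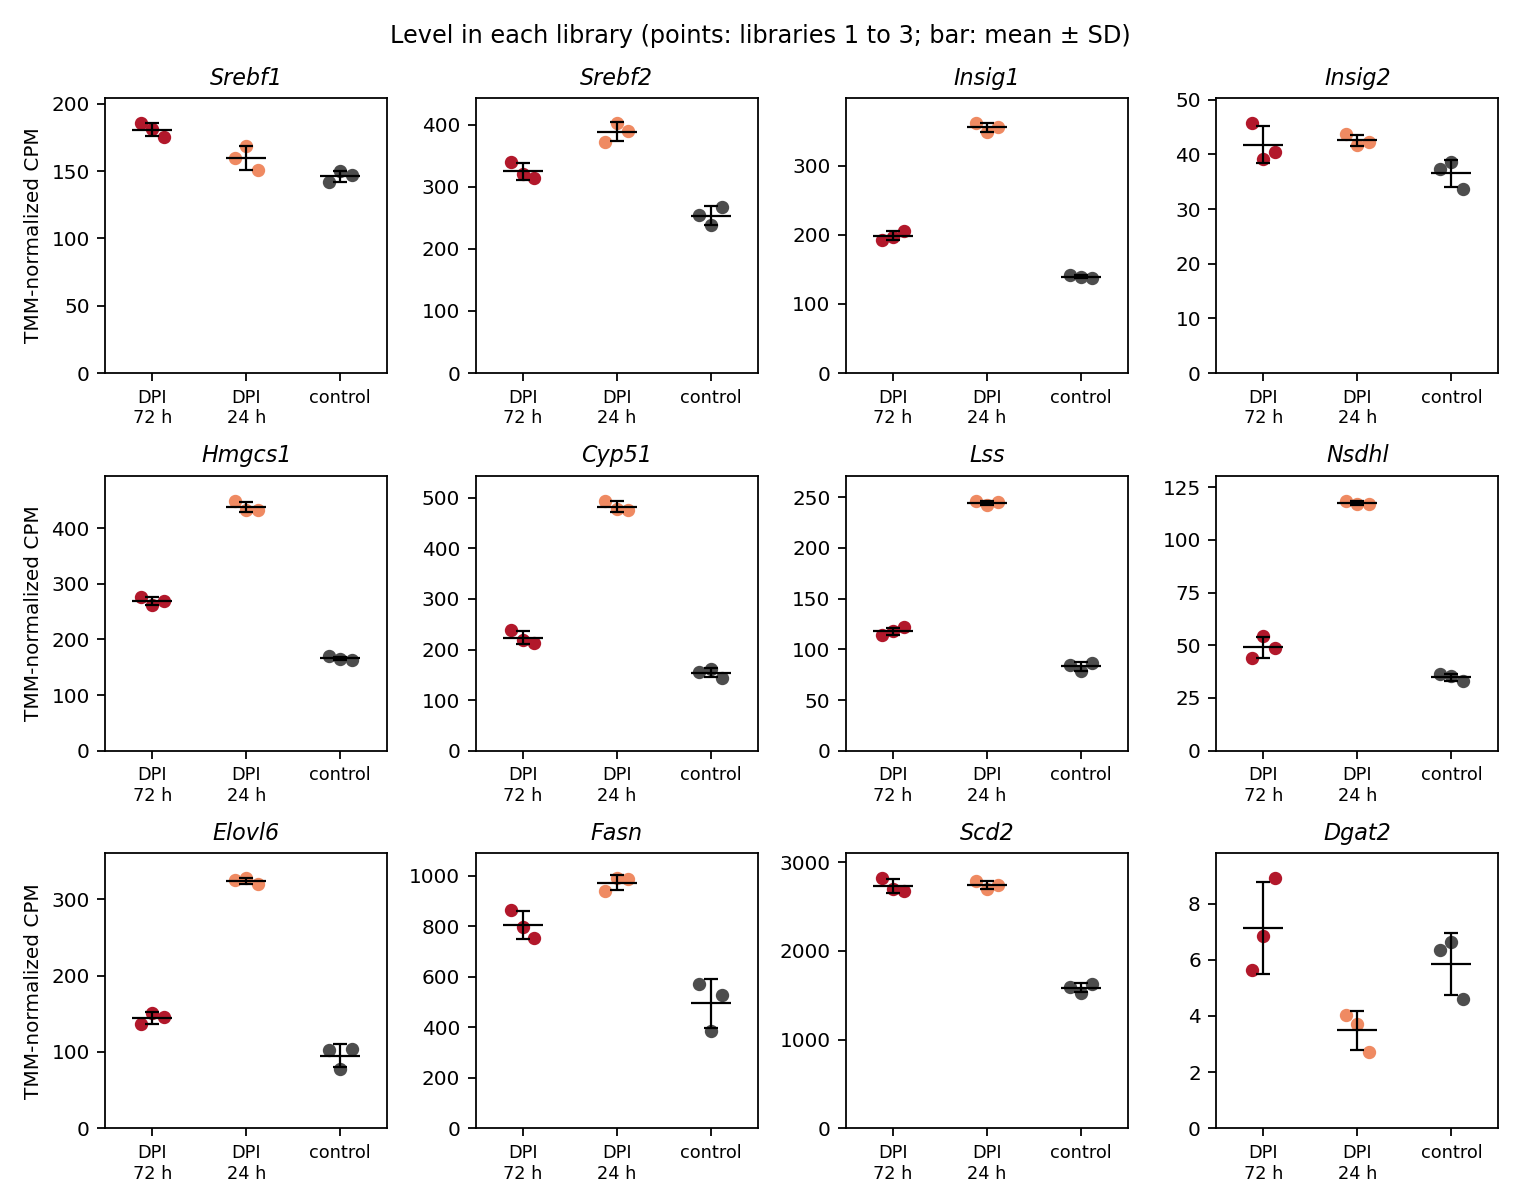
TMM-normalized CPM (vertical axes, starting at 0) of 12 genes in each of the 9 libraries, with DPI 72 h, DPI 24 h and control from left to right; points are libraries, the long bar is the mean and the whiskers are 1 SD (n = 3). Insig1, Hmgcs1, Cyp51, Lss, Nsdhl and Elovl6 are highest at 24 h, Scd2 is at the same height at 72 h and 24 h, Srebf1 is highest at 72 h, and Dgat2 is lowest at 24 h.

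The sterol branch was higher in DPI-exposed fibroblasts at both times and was highest at 24 h. At 24 h, 18 of its 19 genes were called higher than in controls and 0 lower, with a median log2 change of 1.25 and a range from 0.47 to 1.75. Called members made up 94.7% of the branch, against the 12.4% of all genes called higher, and the median over all genes tested was -0.01. Tm7sf2 was the gene not called. The summed level of the 19 genes was 2179, 2125 and 2085 CPM at 72 h, 3853, 3749 and 3704 CPM at 24 h, and 1466, 1545 and 1429 CPM in controls.

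**Figure D2:**
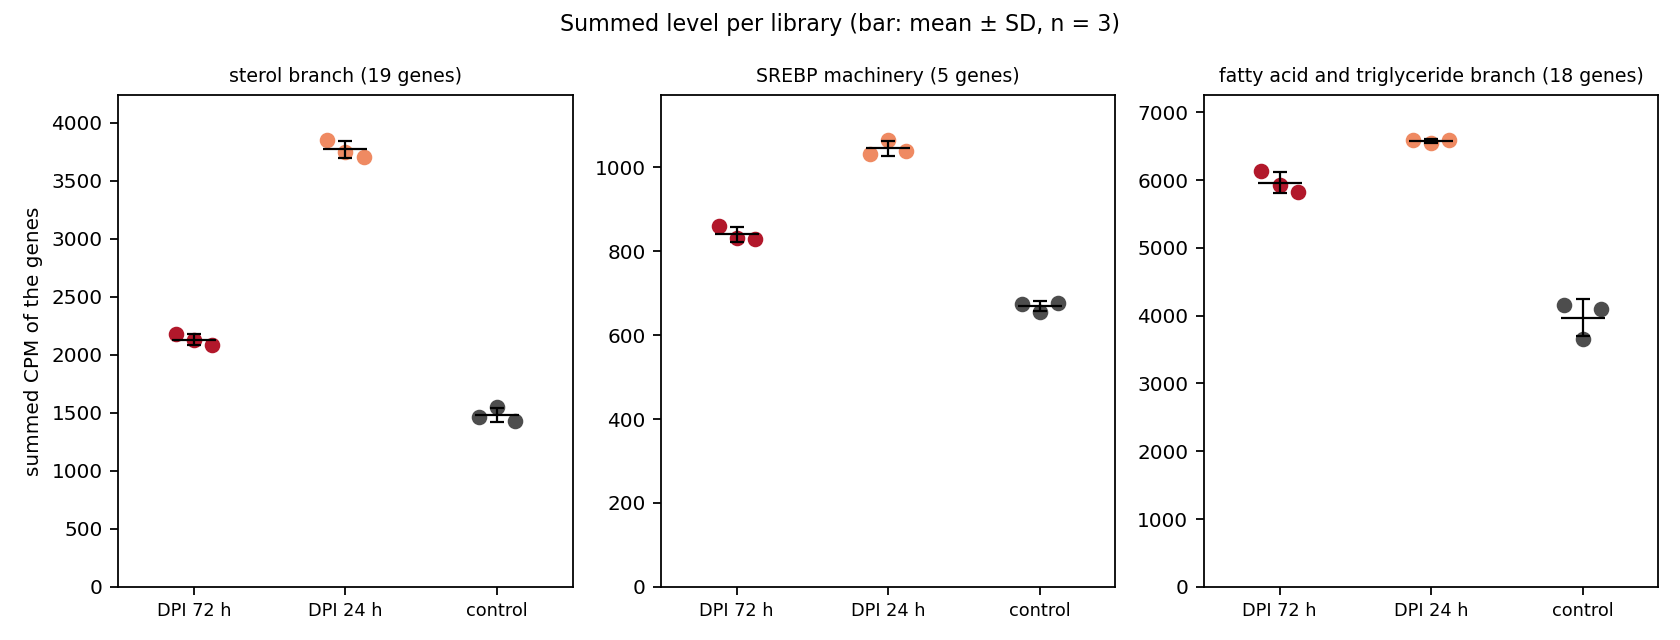
Summed TMM-normalized CPM (vertical axes, starting at 0) of the 19 sterol branch genes, the 5 SREBP machinery genes and the 18 fatty acid branch genes in each library, with DPI 72 h, DPI 24 h and control from left to right; points are libraries, bars are means and whiskers 1 SD (n = 3). Sterol branch sums at 72 h lie nearer to controls than to 24 h, and fatty acid branch sums at 72 h lie nearer to 24 h than to controls.

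The pathway begins with acetyl-CoA. Acat2, the cytosolic thiolase that joins acetyl-CoA units, had 122, 116 and 115 CPM at 72 h, 261, 252 and 242 CPM at 24 h, and 78.3, 80.7 and 71.9 CPM in controls. Its groups do not overlap, and it was 3.27-fold higher at 24 h than in controls (log2 change 1.71 ± 0.06, SE, edgeR adjusted p = 6.94e-08). Of the 50-base sequences of Acat2, 45.9% occur in transcripts of other genes, most often its neighbour Acat3, so the origin of such reads is uncertain. Acat3 held 435 counts in all against 22253 for Acat2, and other genes that share these sequences were not counted separately. Hmgcs1, which makes the precursor of mevalonate, changed by 1.40 ± 0.05 on the log2 scale at 24 h. The mevalonate kinases Mvk and Pmvk changed by 1.02 and 0.90, the decarboxylase Mvd by 1.39 and the isopentenyl isomerase Idi1 by 1.42. Fdps changed by 1.25, and Fdft1 and Sqle, which make squalene and its epoxide, changed by 0.96 and 1.18. For Idi1 30.5% of these sequences occur in transcripts of other genes, most often Gm13502. For Fdft1 the share over all other genes is 30.7%, most often Ctsb on the opposite strand. The Ctsb total of 57679 counts exceeds the 15257 of Fdft1.

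Lanosterol formation and the steps just after it held 5 of the 6 largest changes of the branch at 24 h. Lss, the lanosterol synthase, had 114, 118 and 122 CPM at 72 h, 247, 243 and 245 CPM at 24 h, and 84.8, 78.3 and 86.3 CPM in controls. Cyp51, the lanosterol demethylase, had 238, 219 and 212 CPM at 72 h, 494, 478 and 475 CPM at 24 h, and 156, 162 and 144 CPM in controls. For both genes the 24 h libraries are highest, the 72 h libraries lie between them and the controls, and the groups do not overlap. Their log2 changes at 24 h were 1.56 ± 0.06 for Lss and 1.64 ± 0.07 for Cyp51 (SE, edgeR adjusted p = 6.94e-08 and 9.64e-08).

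The removal of methyl groups from the sterol ring needs Msmo1, Nsdhl and Hsd17b7 in turn. Msmo1 had 233, 224 and 213 CPM at 72 h, 433, 405 and 390.5 CPM at 24 h, and 152, 162 and 135 CPM in controls. Nsdhl had 44.0, 54.2 and 48.8 CPM at 72 h, 119, 117 and 117 CPM at 24 h, and 36.2, 35.2 and 33.1 CPM in controls. All 3 groups stand apart for both genes, with the 24 h libraries highest. Hsd17b7 had 23.8, 21.9 and 17.7 CPM at 72 h, 48.7, 48.1 and 44.7 CPM at 24 h, and 14.7, 11.7 and 15.7 CPM in controls. Nsdhl and Hsd17b7 were each 3.37-fold higher at 24 h than in controls (log2 change 1.75 ± 0.08 and 1.75 ± 0.13, SE, edgeR adjusted p = 1.83e-07 and 4.64e-06), and Msmo1 was 2.74-fold higher (1.46 ± 0.08, adjusted p = 5.77e-07).

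Genes of the last steps and of sterol transport were also higher at 24 h, except Tm7sf2, which was not called. The isomerase gene Ebp changed by 0.57 ± 0.08 on the log2 scale, the desaturase gene Sc5d by 1.14 ± 0.06 and the final reductase gene Dhcr7 by 1.03 ± 0.08 (SE, all called by edgeR). Stard4, whose product is a carrier that moves cholesterol between membranes, changed by 0.81 ± 0.08. Tm7sf2 had 5.10, 5.56 and 5.999 CPM at 72 h, 5.32, 6.58 and 5.47 CPM at 24 h, and 2.59, 5.90 and 4.03 CPM in controls, and its groups overlap. Its log2 changes of 0.41 ± 0.26 at 72 h and 0.47 ± 0.26 at 24 h were not called (adjusted p = 0.402 and 0.222). Both passed without control library 2, the highest control (adjusted p = 0.0478 and 0.0168). Tm7sf2 also shares 532 exon bases with Vps51 on the same strand, whose 6161 counts exceed its own 772.

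At 72 h the sterol branch remained above controls by a smaller margin. Of its 19 genes, 15 were called higher and 0 lower (78.9%, against 4.73% of all genes called higher), with a median log2 change of 0.49 and a range from 0.09 to 0.70. The largest were Hmgcs1 at 0.70 ± 0.05, Acat2 at 0.61 ± 0.06, Hsd17b7 at 0.60 ± 0.13, Idi1 at 0.58 ± 0.07 and Msmo1 at 0.58 ± 0.08 (SE). Mvk, Pmvk, Ebp and Tm7sf2 were not called, with log2 changes of 0.29, 0.37, 0.09 and 0.41. Without control library 2 the count was 18, with Mvk and Pmvk among them at adjusted p = 0.00903 and 0.000384. Both also passed with no filter on low counts (0.041 for Mvk and 0.00702 for Pmvk), and Pmvk passed with DESeq2 (0.0331). The smallest called change was that of Fdft1, 0.25 ± 0.06 (edgeR adjusted p = 0.0277), and it was lost when any library other than control library 2 was left out, at adjusted p from 0.0535 to 0.107. The Dhcr7 call was lost without control library 1 or 3 or DPI 72 h library 1 or 2 (adjusted p from 0.0527 to 0.0748), and that of Hsd17b7 without DPI 72 h library 1 or 2 (0.073 and 0.0659). A model of the compared libraries alone lost all 3 calls, at adjusted p of 0.107 for Fdft1, 0.0588 for Dhcr7 and 0.0647 for Hsd17b7, and upper-quartile scaling lost that of Fdft1 (0.0646).

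Set directly against 24 h, 18 sterol genes were lower at 72 h and 0 higher, where 11.2% of all genes were called lower. The median log2 difference was -0.73, with a range from -1.26 to -0.06. Nsdhl, Hsd17b7, Cyp51, Acat2 and Lss differed most, by -1.26, -1.16, -1.11, -1.10 and -1.05 on the log2 scale. Stard4, at -0.34 ± 0.08, differed least among the called genes (SE, edgeR adjusted p = 0.0109). Tm7sf2, at -0.06 ± 0.25, was not called. The same 24 h libraries stand in this comparison and in the one with controls, so the order of genes in one is not independent of the other.

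**Figure D3:**
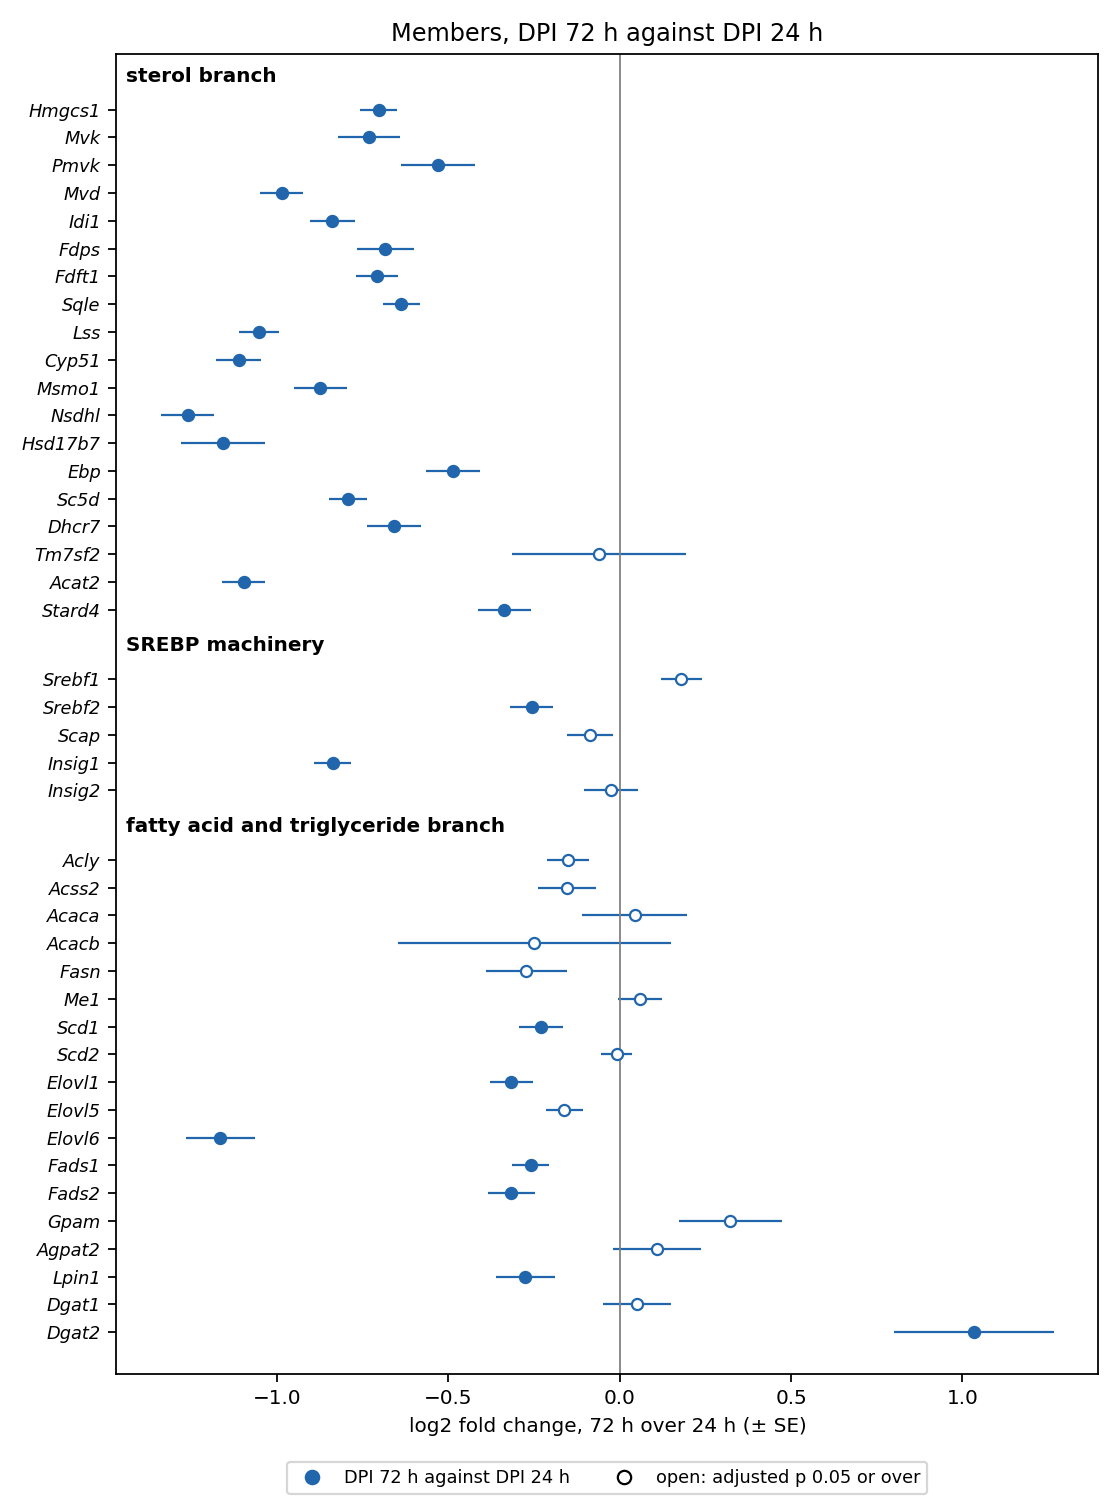
Log2 difference of DPI 72 h over DPI 24 h (horizontal axis) for each of the 42 genes, grouped by branch down the page; points are edgeR estimates, whiskers 1 SE, and open points have an adjusted p of 0.05 or over. The sterol branch lies left of 0 down to -1.26. The fatty acid branch has a median of -0.16 and points on both sides of 0, from Elovl6 at -1.17 to Dgat2 at 1.03.

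Because the sterol genes moved together, their start regions were searched for the letters of the elements that SREBP and NF-Y are known to bind. The windows were RefSeq promoter sequences on GRCm38.p6, from 250 bases before to 50 after the annotated start, and 33 of the 42 genes had one. Fdps, Fdft1, Sqle, Stard4, Scd1, Scd2, Fads1, Dgat1 and Dgat2 had none. The letters were TCACNCCAC (a sterol element), CCAAT (the NF-Y box) and CACGTG (an E-box), on both strands with overlapping matches counted, and a gene counted when any of its windows held a match. The 5 windows printed here were chosen for their roles: the entry step Hmgcs1, the demethylase Cyp51, the retention gene Insig1, and Elovl6 and Fasn from the fatty acid branch. They lie at chr13:119690101-119690400 on the plus strand (Hmgcs1), chr5:4104648-4104947 on the minus strand (Cyp51), chr5:28071162-28071461 on the plus strand (Insig1), chr3:129532136-129532435 on the plus strand (Elovl6) and chr11:120824498-120824797 on the minus strand (Fasn). Each is written 5′ to 3′ on its gene's strand, and capitals mark a match to any of the 3 motifs on either strand.
Hmgcs1: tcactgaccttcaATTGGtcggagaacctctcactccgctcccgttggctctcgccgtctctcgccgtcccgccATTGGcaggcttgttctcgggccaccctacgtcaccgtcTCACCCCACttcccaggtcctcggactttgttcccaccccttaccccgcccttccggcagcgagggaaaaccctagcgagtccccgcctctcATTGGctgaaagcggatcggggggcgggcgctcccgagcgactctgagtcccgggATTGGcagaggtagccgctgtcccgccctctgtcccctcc
Cyp51: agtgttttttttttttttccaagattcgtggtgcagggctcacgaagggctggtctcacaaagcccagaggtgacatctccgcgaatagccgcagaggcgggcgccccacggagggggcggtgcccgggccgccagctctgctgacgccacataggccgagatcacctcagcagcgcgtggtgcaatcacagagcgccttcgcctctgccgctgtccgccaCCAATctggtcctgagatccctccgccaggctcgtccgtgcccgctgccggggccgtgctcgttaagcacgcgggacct
Insig1: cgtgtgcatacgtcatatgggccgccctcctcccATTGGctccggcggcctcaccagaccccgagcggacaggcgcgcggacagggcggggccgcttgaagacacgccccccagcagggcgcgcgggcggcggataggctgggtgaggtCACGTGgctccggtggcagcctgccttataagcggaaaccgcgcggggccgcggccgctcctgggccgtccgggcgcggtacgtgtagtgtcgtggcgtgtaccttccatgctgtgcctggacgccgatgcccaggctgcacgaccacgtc
Elovl6: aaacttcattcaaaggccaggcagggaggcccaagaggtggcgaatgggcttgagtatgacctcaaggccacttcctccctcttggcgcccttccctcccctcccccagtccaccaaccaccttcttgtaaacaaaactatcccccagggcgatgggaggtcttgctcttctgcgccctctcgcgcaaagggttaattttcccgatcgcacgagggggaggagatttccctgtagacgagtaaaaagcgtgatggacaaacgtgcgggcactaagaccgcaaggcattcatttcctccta
Fasn: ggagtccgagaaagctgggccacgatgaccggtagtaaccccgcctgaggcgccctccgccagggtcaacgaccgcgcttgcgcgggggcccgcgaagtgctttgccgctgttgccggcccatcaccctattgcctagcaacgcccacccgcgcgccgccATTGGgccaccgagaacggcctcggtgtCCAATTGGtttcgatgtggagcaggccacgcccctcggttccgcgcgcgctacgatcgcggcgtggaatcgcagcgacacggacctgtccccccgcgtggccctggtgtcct

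The Hmgcs1 window held the sterol element TCACCCCAC, 129 bases before the start, and 4 CCAAT matches, all as the reverse complement ATTGG. Of these 4 matches, 1 lay after the annotated start. The last bases of the Hmgcs1 window were in 0 GENCODE transcripts of that gene, whereas those of each other printed window were in at least 1. Cyp51 held 1 CCAAT match, 25 bases before the start, and Insig1 held 1 CCAAT match and 1 E-box, which lay 96 bases before the start. Fasn held 3 CCAAT matches, of which 2 overlap in the run CCAATTGG, and the Elovl6 window held none of the 3 motifs. Among genes with a window, CCAAT was present in 14 of 15 sterol genes (93.3%), 4 of 5 machinery genes (80.0%) and 8 of 13 fatty acid genes (61.5%), against 43.8% of the 9839 tested genes with a window. The sterol gene without CCAAT was Acat2, whose window held none of the 3 motifs, while Tm7sf2, not called in any comparison, had CCAAT. Whether the motifs bear on the changes in level was not tested. Genes can have several windows, and with 1 window each the shares were 12 of 13 sterol genes (92.3%) and 5 of 10 fatty acid genes (50%), against 40.2%. The sterol element as spelled was found in Hmgcs1 alone among the 33 genes, against 1.32% of tested genes. CACGTG was found in 3 of 15 sterol genes, 2 of 5 machinery genes and 1 of 13 fatty acid genes, against 11.8%. These matches describe letters in a window and do not show binding, and no match says only that these letters are not in that window.

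**Figure D4:**
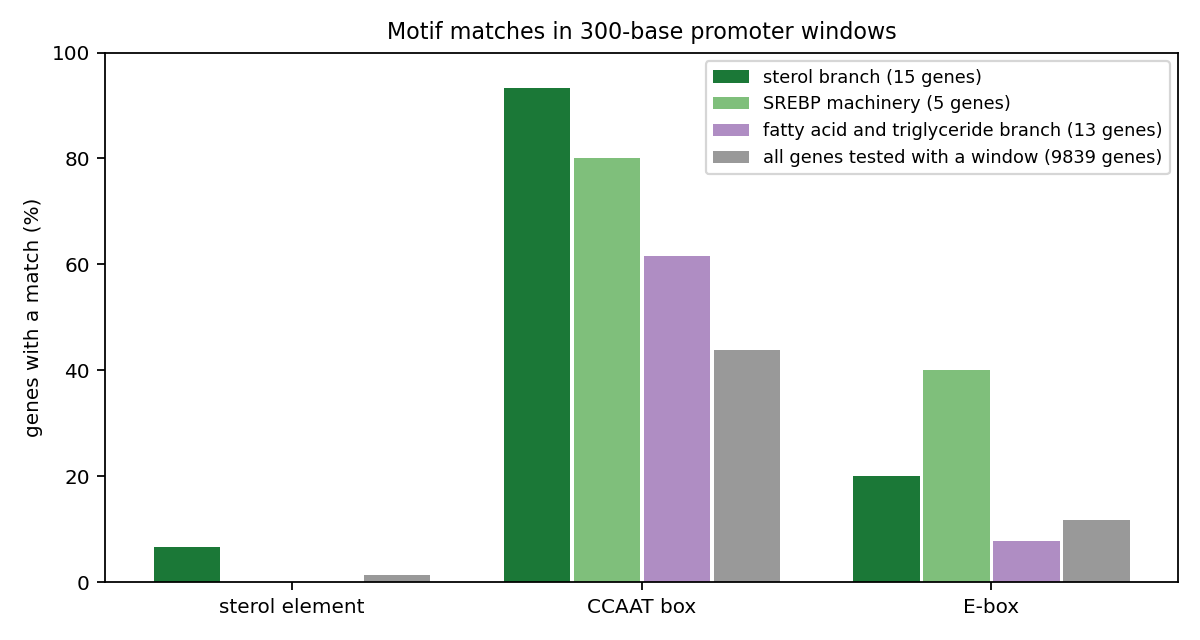
Share of genes (vertical axis, percent, starting at 0) whose RefSeq promoter window held each of the 3 motifs, for the sterol branch (15 genes with a window), the SREBP machinery (5), the fatty acid branch (13) and all tested genes with a window (9839). The CCAAT bars fall in the order sterol branch 93.3%, machinery 80.0%, fatty acid branch 61.5% and all tested genes 43.8%.

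Most of the fatty acid branch was also higher at 24 h than in controls. Of its 18 genes, 11 were called higher than in controls and 2 lower (61.1% and 11.1%, against 12.4% and 12.3% of all genes), with a median log2 change of 0.44 and a range from -0.75 to 1.77. Elovl6 had the largest estimate of all 42 genes, a log2 change of 1.77 ± 0.10 (SE). It lay within 1 SE of the 1.75 ± 0.13 of Hsd17b7 and the 1.75 ± 0.08 of Nsdhl, so this rank is not secure. The genes called lower were Me1 and Dgat2. The summed level was 6129, 5927 and 5824 CPM at 72 h, 6597, 6541 and 6589 CPM at 24 h, and 4159, 3653 and 4098 CPM in controls. Scd2 alone gave 2743 ± 47.3 CPM of the 24 h sum (SD, n = 3), so the sum mostly follows a few abundant genes. Control library 2 had the lowest of the 9 sums.

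Acetyl-CoA supply and chain building come first. Acly, which makes cytosolic acetyl-CoA from citrate, and Acss2, which makes it from acetate, changed by 0.67 ± 0.06 and 0.66 ± 0.09 on the log2 scale at 24 h (SE, both called). Fasn had 863, 797 and 755 CPM at 72 h, 939, 989.7 and 989 CPM at 24 h, and 572, 387 and 526 CPM in controls. Both DPI groups lie above all controls, and the log2 change at 24 h was 0.97 ± 0.12 (SE, edgeR adjusted p = 0.000197). The log2(CPM + 0.5) of control library 2 minus the mean of the other controls was -0.50 for Fasn, -0.71 for Acaca, -0.63 for Gpam and -0.42 for Elovl6.

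Acaca, the cytosolic acetyl-CoA carboxylase, had 308, 287 and 285 CPM at 72 h, 274, 294 and 286 CPM at 24 h, and 253, 148 and 233 CPM in controls. Every DPI library was above every control, yet neither the log2 change of 0.48 ± 0.15 at 72 h nor that of 0.43 ± 0.15 at 24 h was called (SE, edgeR adjusted p = 0.0873 and 0.0629). Both passed without control library 2 (adjusted p = 0.00411 and 0.00549) and without control library 1 (0.03 and 0.0195). With all libraries, both were also called by DESeq2 (0.0169 at 72 h and 0.0184 at 24 h) and by edgeR with no filter on low counts (3.12e-06 and 1.52e-05), and limma voom called the 24 h change (0.0483). Of the 50-base sequences of Acaca, 52.6% occur in transcripts of other genes, most often Gm5182. Gm5182 held 491 counts in all against 39021 for Acaca, and other genes that share these sequences were not counted separately. Acacb, at 1.03, 0.803 and 1.87 CPM at 72 h, 1.83, 1.16 and 1.41 CPM at 24 h, and 1.81, 1.16 and 1.28 CPM in controls, had overlapping groups, and no change was detectable at this depth (log2 change 0.05 ± 0.39 at 24 h).

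All 7 elongation and desaturation genes among the members were called higher at 24 h than in controls, against 12.4% of all genes called higher. Outside the members, the desaturase gene Fads3 and the elongase gene Elovl7 were called lower at 24 h (log2 change -0.33 and -1.19). The elongase gene Elovl4 was called higher (0.30), a call that some alternatives lost. Elovl6, which lengthens saturated and monounsaturated acids, had 137, 151 and 146 CPM at 72 h, 325, 327 and 320.0 CPM at 24 h, and 103, 77.3 and 104 CPM in controls. The 24 h libraries stand far above all others, and it was 3.42-fold higher at 24 h than in controls (log2 change 1.77 ± 0.10, SE, edgeR adjusted p = 9.98e-07). Scd2 had 2816, 2692 and 2672 CPM at 72 h, 2792, 2697 and 2739 CPM at 24 h, and 1597, 1525 and 1628 CPM in controls. Its DPI groups overlap each other and both lie far above controls, with log2 changes of 0.78 ± 0.05 at 72 h and 0.79 ± 0.05 at 24 h (adjusted p = 2.19e-06 and 8.57e-07). Scd1 had 474, 481 and 471 CPM at 72 h, 565, 549.8 and 556 CPM at 24 h, and 353, 301 and 341 CPM in controls, in 3 groups that do not overlap.

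Fads2, a front-end desaturase of polyunsaturated acids, had 149, 143 and 143 CPM at 72 h, 181, 175 and 186 CPM at 24 h, and 105, 91.6 and 108 CPM in controls. These groups do not overlap, and the log2 change at 24 h was 0.83 ± 0.07 (SE, edgeR adjusted p = 1.36e-05). Its partner Fads1 changed by 0.42 ± 0.05 at 24 h, and the elongases Elovl1 (very long chains) and Elovl5 (polyunsaturated chains) each by 0.44, all called. Me1, the cytosolic malic enzyme that yields NADPH, had 229.6, 215 and 212 CPM at 72 h, 216, 210.2 and 205 CPM at 24 h, and 238, 258 and 227 CPM in controls. The 24 h libraries lie just below the lowest control, and the log2 change of -0.20 ± 0.06 was called at the edge of the threshold (edgeR adjusted p = 0.0477). That call was lost without control library 1 and without any 1 of the 6 DPI libraries, at adjusted p from 0.0555 to 0.145. It was also lost with RLE scaling (0.0506), with no filter on low counts (0.097) and in a model of the compared libraries alone (0.0913). Of the 50-base sequences of Me1, 32.8% occur in transcripts of other genes, most often Gm7049.

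Genes of triglyceride assembly differed in direction. Lpin1, a phosphatidate phosphatase, had 56.7, 58.5 and 54.9 CPM at 72 h, 66.5, 72.5 and 66.8 CPM at 24 h, and 38.8, 30.8 and 37.2 CPM in controls, with a log2 change of 0.95 ± 0.09 at 24 h (SE, edgeR adjusted p = 2.67e-05). Dgat2, an acyltransferase of the last step, had 5.65, 6.86 and 8.90 CPM at 72 h, 4.04, 3.72 and 2.71 CPM at 24 h, and 6.33, 6.62 and 4.60 CPM in controls. The 24 h libraries are lowest and the 72 h libraries overlap the controls. Its log2 change at 24 h was -0.75 ± 0.23 (adjusted p = 0.0391). The call was lost without control library 1 or 2, any DPI 24 h library or DPI 72 h library 2, at adjusted p from 0.0525 to 0.137, and in a model of the compared libraries alone (0.0534). Dgat1, Gpam and Agpat2, which act beside or before it, had log2 changes of -0.14, -0.06 and 0.02 at 24 h and were not called. Gpam passed downward without control library 2 (adjusted p = 0.0465).

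At 72 h, 9 of the 18 fatty acid genes were called higher than in controls and 0 lower (50%, against 4.73% of all genes called higher), with a median log2 change of 0.38. These were Scd2 at 0.78, Fasn at 0.70, Lpin1 at 0.67, Elovl6 at 0.61, Acly and Scd1 at 0.52, Fads2 at 0.51, Acss2 at 0.50 and Elovl5 at 0.28. Elovl1 and Fads1, at 0.13 and 0.16, were not called and passed without control library 2 (edgeR adjusted p = 0.0442 and 0.0436), and DESeq2 called Fads1 (0.0264). Me1 and Dgat2 had log2 changes of -0.14 and 0.28 and were not called. Without control library 2 the count was 12, with Acaca the third gene added, while genes called higher over the whole table were 1104, against 666 with all libraries.

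**Figure D5:**
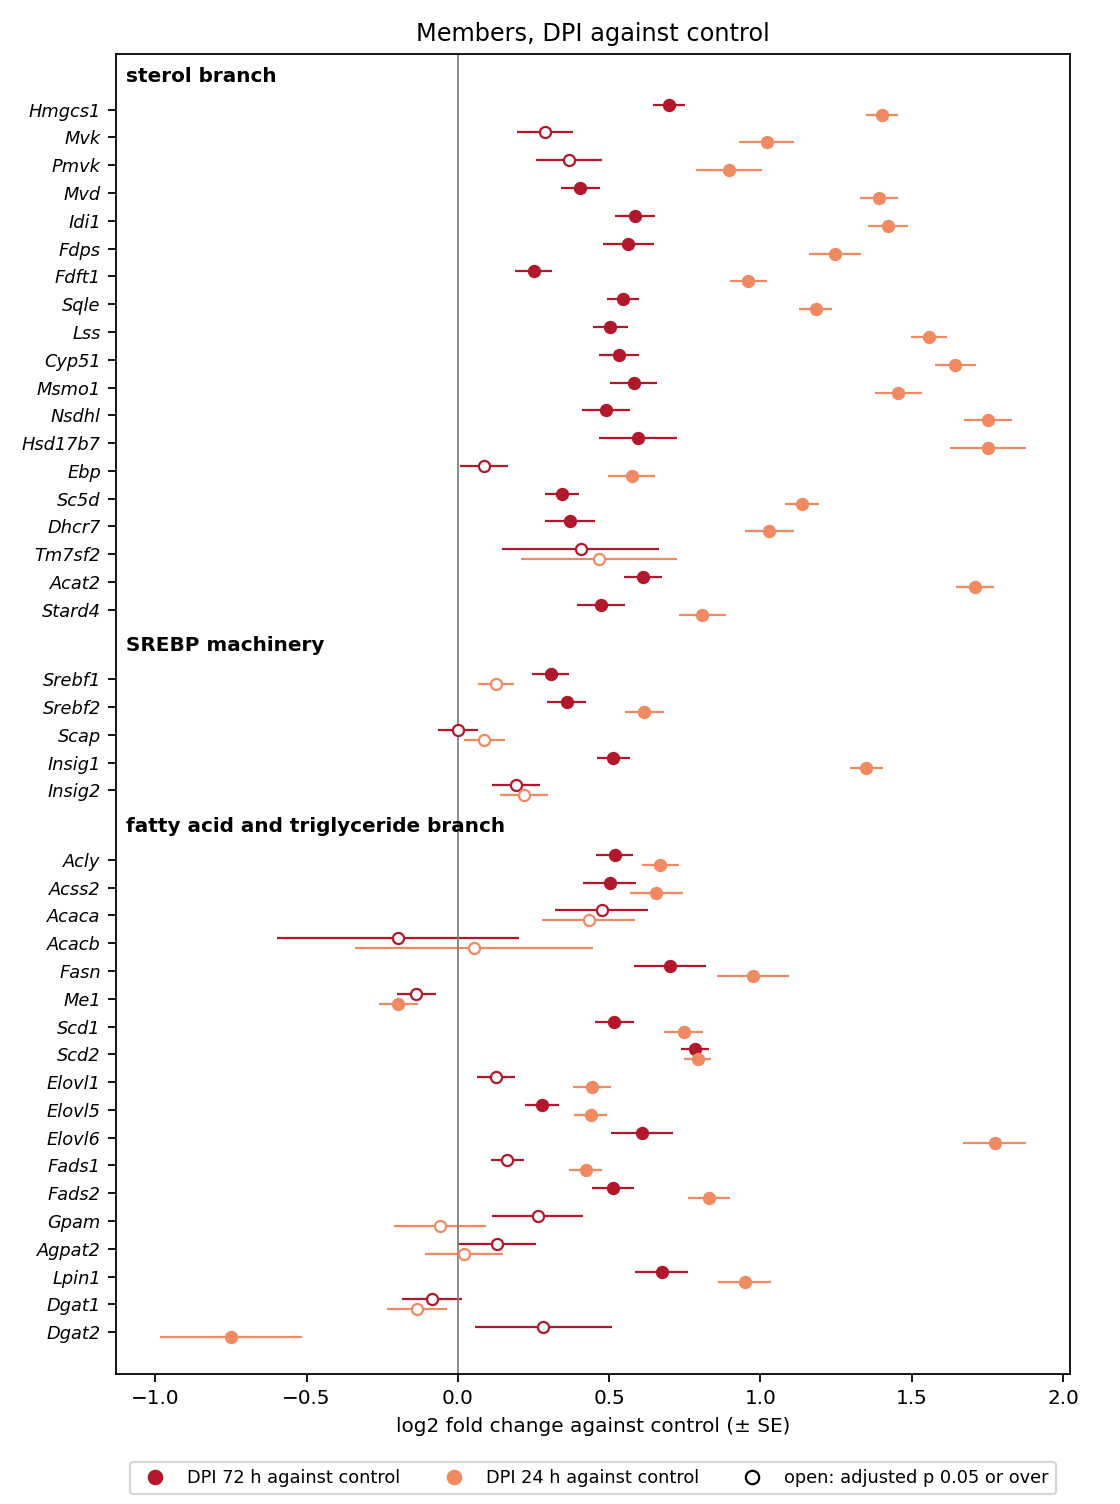
Log2 fold change against control (horizontal axis) of each of the 42 genes at DPI 72 h (dark red) and DPI 24 h (orange), grouped by branch down the page; points are edgeR estimates, whiskers 1 SE, and open points have an adjusted p of 0.05 or over. In the sterol branch the 24 h points lie right of the 72 h points, whereas for Scd2 both points fall at 0.78 and 0.79.

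Between the exposures, 7 of the 18 fatty acid genes were called. Of these, 6 were lower at 72 h than at 24 h and 1 was higher (33.3% and 5.56%, against 11.2% and 10.1% of all genes), with a median log2 difference of -0.16. Elovl6 had a log2 difference of -1.17 ± 0.10 (SE, edgeR adjusted p = 1.75e-05). The differences were -0.32 for Elovl1 and Fads2, -0.27 for Lpin1, -0.26 for Fads1 and -0.23 for Scd1. Dgat2 was 2.05-fold higher at 72 h than at 24 h (1.03 ± 0.23, adjusted p = 0.00972). Scd2 differed by -0.01 ± 0.04 and was not called, nor were Acly (-0.15), Acss2 (-0.15), Elovl5 (-0.16) and Fasn (-0.27).

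Some of these calls depended on which libraries were kept. The Scd1 call was lost without any 1 of the 6 DPI libraries (adjusted p from 0.0686 to 0.0943), and the Lpin1 call without any of them or control library 3 (from 0.0514 to 0.15). Without control library 2, 11 fatty acid genes were called. Acly, Fasn and Elovl5 then passed downward (adjusted p = 0.00364, 0.00101 and 0.00985) and Gpam upward (0.00661). A model of the compared libraries alone also called these 4 (0.00802 for Acly, 0.00127 for Fasn, 0.0183 for Elovl5 and 0.00666 for Gpam), edgeR with no filter on low counts called Fasn (0.0124) and DESeq2 called Elovl5 (0.0488). The genes called over the whole table were then 4750, against 3001 with all libraries.

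Around the members, the wider pathway was read from gene lists with roles near theirs. Of 11 genes for SREBP proteases, INSIG partners and NF-Y, 1 was higher and 3 were lower at 24 h than in controls (9.09% and 27.3%, against 12.4% and 12.3% of all genes), with a median log2 change of -0.03. Erlin1, whose product binds SCAP and INSIG, changed by -0.73 ± 0.05, the protease gene Mbtps2 by -0.55 ± 0.09 and the NF-Y subunit gene Nfyc by 0.42 ± 0.06 (SE, all called by edgeR). Erlin1 had 115, 117 and 117 CPM at 72 h, 89.3, 85.3 and 87.7 CPM at 24 h, and 147, 142 and 147 CPM in controls, lowest where Insig1 and the sterol genes were highest. At 72 h, 2 of the 11 were higher and 1 lower than in controls (18.2% and 9.09%, against 4.73% and 3.83% of all genes). Between 72 h and 24 h, 5 were higher and 2 lower at 72 h (45.5% and 18.2%, against 10.1% and 11.2%).

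Of 8 genes that esterify, oxidise or otherwise handle sterols, 6 were tested, and 1 was higher and 1 lower at 24 h than in controls (16.7% each, against 12.4% and 12.3% of all genes). Soat2, which esterifies cholesterol for storage, was the one called lower. It had 4.37, 3.46 and 5.29 CPM at 72 h, 1.28, 0.792 and 1.13 CPM at 24 h, and 7.84, 7.56 and 7.93 CPM in controls. Its log2 change was -2.85 ± 0.24 at 24 h (SE, edgeR adjusted p = 1.25e-05) and -0.83 ± 0.21 at 72 h (adjusted p = 0.0308), and it was higher at 72 h than at 24 h by 2.02. The 72 h call was lost without control library 1 or 3, DPI 24 h library 3 or DPI 72 h library 1 or 2, at adjusted p from 0.0503 to 0.126. Soat1, the more abundant esterifying enzyme, had a log2 change of -0.13 at 24 h that was not called. Tmem97, a sterol-regulated membrane protein gene, changed by 0.74 ± 0.07 at 24 h and by 0.09 at 72 h, of which the first was called. At 72 h, 0 genes of this list were higher and 1 was lower than in controls (0% and 16.7%, against 4.73% and 3.83% of all genes). Between 72 h and 24 h, 2 were higher and 1 lower at 72 h (33.3% and 16.7%, against 10.1% and 11.2%). With 6 genes tested, each gene is 16.7% of the list.

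Mevalonate products also go into ubiquinone, dolichol and prenylated proteins. Of 10 genes for these nonsterol isoprenoids, 0 were higher and 1 was lower at 24 h (0% and 10%, against 12.4% and 12.3% of all genes), with a median log2 change of 0.04. The gene called was Coq2, a transferase of ubiquinone synthesis, at -0.57 ± 0.11 (SE, edgeR adjusted p = 0.00289), with 47.5, 42.9 and 41.9 CPM at 72 h, 32.5, 30.7 and 33.4 CPM at 24 h, and 44.1, 56.4 and 42.6 CPM in controls. At 72 h, 0 were higher and 1 was lower than in controls (0% and 10%, against 4.73% and 3.83%), and between 72 h and 24 h, 1 was higher and 1 lower at 72 h (10% each, against 10.1% and 11.2%).

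Of 30 further genes of fatty acid and glycerolipid synthesis, 24 were tested, and 7 were higher and 2 lower at 24 h (29.2% and 8.33%, against 12.4% and 12.3% of all genes), with a median log2 change of 0.04. The elongase gene Elovl7 changed by -1.19 ± 0.23, the ketoacyl-CoA reductase gene Hsd17b12 by 0.69 ± 0.08 and the acyl-CoA synthetase gene Acsl3 by 0.56 ± 0.06 (SE, all called by edgeR). Elovl7 had 4.25, 3.21 and 3.87 CPM at 72 h, 1.83, 1.83 and 1.41 CPM at 24 h, and 3.80, 4.36 and 3.45 CPM in controls. At 72 h, 4 of the 24 were higher and 1 lower than in controls (16.7% and 4.17%, against 4.73% and 3.83%), and between 72 h and 24 h, 3 were higher and 3 lower at 72 h (12.5% each, against 10.1% and 11.2%).

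Among 5 tested LXR receptors and targets, 1 was higher and 1 lower in each comparison, and each gene is 20% of the list, against 12.4% and 12.3% of all genes at 24 h, 4.73% and 3.83% at 72 h, and 10.1% and 11.2% between them. The gene called higher against control at both times was Lpcat3, a phospholipid acyltransferase, with 89.5, 89.4 and 83.9 CPM at 72 h, 83.0, 82.4 and 85.1 CPM at 24 h, and 55.9, 60.2 and 58.8 CPM in controls. Both DPI groups lie above all controls, with log2 changes of 0.59 ± 0.06 at 72 h and 0.52 ± 0.06 at 24 h (SE, edgeR adjusted p = 0.000112 and 0.000115). The gene called lower was Abca1 at 24 h and the receptor gene Nr1h2 at 72 h, the second with a log2 change of -0.41 ± 0.07 (adjusted p = 0.00449). The cholesterol exporter gene Abca1 had 103, 95.0 and 107 CPM at 72 h, 39.9, 47.1 and 38.9 CPM at 24 h, and 78.0, 43.5 and 77.6 CPM in controls, with log2 changes of 0.61 at 72 h, not called (adjusted p = 0.0628), and -0.66 at 24 h (edgeR adjusted p = 0.0247). The 24 h call was lost without control library 1 or 3 or DPI 24 h library 1 or 3 (adjusted p from 0.0739 to 0.0872), and in a model of the compared libraries alone (0.0594). The 72 h change passed without control library 1 or 2 (0.0418 and 0.00463), and with DESeq2 (0.00811), limma voom (0.0471) or no filter on low counts (4.79e-09). Set directly against 24 h, Abca1 was higher at 72 h, with a log2 difference of 1.27 ± 0.19 (SE, edgeR adjusted p = 0.000665), and the lowest 72 h library lies above the highest 24 h library.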

How the data were processed

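Per the labels' protocols, total RNA of 9 MAF libraries was sequenced on an Illumina instrument. Tools named in the submitters' processing notes are STAR, RSEM, Trim Galore, cutadapt, edgeR and limma, with the build GRCm38 and without versions, roles or order. Each of annotation release, strand setting and any rounding is not given in the sources used here, so antisense and overlapping genes cannot be told apart.

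The authors deposited a table of raw counts, whole numbers per Ensembl gene, which was used throughout. In their second table all 159498 values equalled those counts. Of the IDs, 105 had no symbol in GENCODE (0.009% of counts).

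The filter filterByExpr kept 14088 genes, with at least 99.87% of each library's counts, and TMM factors lay between 0.984 and 1.02. One edgeR 4.0.16 model (R 4.3.3; glmQLFit, then two-sided glmQLFTest) held all 9 libraries with a mean for each group and 6 residual degrees of freedom. Benjamini-Hochberg adjustment covered every gene tested, and calls needed an adjusted p under 0.05. The standard error is the log2 change over the root of F. FPKM is TMM-scaled CPM per kilobase of merged exons. For a single value per library, 3 against 3 cannot give an exact permutation p under 0.1. The fit was tested on simulated counts. RLE and upper-quartile scaling, other filters, DESeq2 1.42.0, limma 3.58.1 with voom, models of the compared libraries alone, a replicate block, omission of each library and a threshold of 0.01 were the alternatives.

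The members and lists were chosen with earlier results of these data known. Values in every library are given for all machinery genes, for the 6 genes of each other branch called at 24 h with the largest change, and for genes called lower than control. From other lists up to 3 called genes were named by size of change. Scd1, Acaca, Acacb, Tm7sf2, Soat1, Nr1h2, Fads3, Krt14, Cd68, Kdr and the other endothelial markers named were added after their values were seen. One gene was taken out of a wider list and its counts.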

Additional observations from a re-analysis of the deposited data

Results flagged for a closer look

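Levels after 72 h of DPI differed from those after 24 h in 27 of the 42 genes, by the direct test (edgeR, adjusted p under 0.05), in which time in culture cannot be told apart from DPI. All but Dgat2 were lower at 72 h. In the sterol branch the log2 differences were -0.70 for Hmgcs1, -0.73 for Mvk, -0.53 for Pmvk, -0.99 for Mvd, -0.84 for Idi1, -0.68 for Fdps, -0.71 for Fdft1, -0.64 for Sqle and -1.05 for Lss. They were -1.11 for Cyp51, -0.87 for Msmo1, -1.26 for Nsdhl, -1.16 for Hsd17b7, -0.49 for Ebp, -0.79 for Sc5d, -0.66 for Dhcr7, -1.10 for Acat2 and -0.34 for Stard4. In the machinery they were -0.26 for Srebf2 and -0.84 for Insig1. In the fatty acid branch they were -0.23 for Scd1, -0.32 for Elovl1, -1.17 for Elovl6, -0.26 for Fads1, -0.32 for Fads2, -0.27 for Lpin1 and 1.03 for Dgat2. The share of all genes called in this comparison was 21.3%.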

How the results depend on the processing

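Under the 18 alternatives run, no called value changed sign. Across them, gene by alternative results of the 42 genes kept their side of the threshold in 726 cases at 24 h against control, 720 at 72 h against control and 717 at 72 h against 24 h. Direction was compared only where a gene was called in the main fit or in the alternative. A call was lost in 21, 22 and 22 cases and gained in 8, 13 and 16. At an adjusted p under 0.01, 1904 genes were called at 24 h, 627 at 72 h and 1590 at 72 h against 24 h, and 1 machinery gene in the last. Fitting only the libraries compared gave 759 genes at 72 h against control and 4641 at 72 h against 24 h, with 11 fatty acid members. Upper-quartile scaling gave a sterol branch median of 1.20 at 24 h.

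Leaving out 1 library at a time, genes called ranged from 2376 (without DPI 24 h library 3) to 4449 (without control library 2) at 24 h, from 744 (without DPI 72 h library 2) to 1984 (without control library 2) at 72 h, and from 1978 (without DPI 24 h library 3) to 4750 (without control library 2) between them. Fatty acid members at 72 h against 24 h ranged from 5 to 11 and machinery members from 1 to 3. The sterol median at 24 h ranged from 1.19 to 1.36 and the machinery median at 24 h from 0.16 to 0.26. The cause was not tested. Labels give each group the numbers 1 to 3, but deviations of same-numbered libraries correlated between -0.11 and -0.0049, so the numbers were not taken to pair samples. With a replicate block, among the 42 genes, Dgat2 and Me1 at 24 h (adjusted p = 0.0718 and 0.0668), Fdft1 at 72 h (0.0662) and Lpin1 at 72 h against 24 h (0.0782) lost their calls. Depth limits genes near 1 CPM, such as Acacb.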

Other observations

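In the wider lists, 2 further genes had a pattern across the groups unlike that of the sterol branch, and both were named after their values were seen. Rnf145, a ubiquitin ligase known to act on sterol regulators, had 96.3, 93.8 and 102 CPM at 72 h, 77.7, 76.4 and 79.3 CPM at 24 h, and 71.3, 67.5 and 70.7 CPM in controls. Its log2 change from control was 0.48 ± 0.06 at 72 h (SE, edgeR adjusted p = 0.000396) and 0.16 ± 0.06 at 24 h, not called (adjusted p = 0.0733), and it was higher at 72 h than at 24 h (0.32 ± 0.06, adjusted p = 0.00249). Elovl4, an elongase of very long chains, had 20.8, 25.1 and 26.3 CPM at 72 h, 40.3, 35.3 and 38.6 CPM at 24 h, and 31.7, 32.3 and 29.0 CPM in controls. It was lower than control at 72 h (log2 change -0.37 ± 0.10, adjusted p = 0.0407) and higher than control at 24 h (0.30 ± 0.09, adjusted p = 0.0417). With a replicate block both Elovl4 calls against control were lost (adjusted p = 0.0869 at 72 h and 0.0783 at 24 h), the 72 h one was lost in a model of the compared libraries alone (0.102), and the 24 h one with upper-quartile scaling (0.0905). Both were also lost when some single libraries were left out, the first at adjusted p from 0.0556 to 0.134 (without control library 1, any DPI 24 h library or DPI 72 h library 1 or 2) and the second at 0.0538 to 0.152 (without control library 1 or 3, any DPI 24 h library or DPI 72 h library 2).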
